A study of Homo sapiens with 8 samples.

Results

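The genes described here, 10 in all, belong to the cyclic AMP (cAMP) response, and were measured in HEK293, an established line of human embryonic kidney cells, with and without serotonin. They were chosen by symbol: the transcription factors CREB1, CREM and ATF1, the coactivator CRTC2, the kinase SIK1, and the target genes PER1, NFIL3, GEM, VGF and CITED2. All 10 were found among the 58440 gene rows of the count table, and all 10 passed the filter on low counts that left 17144 genes for testing. The 8 samples were 2 genotypes of HEK293, control cells and a stable line overexpressing HTR1E (a receptor for serotonin that signals through inhibitory G proteins), each with 2 samples without ligand and 2 after serotonin. The labels give every sample 3 h without serum, and serotonin as 1 µM for 1 h. They do not say how many clones the stable line represents, or whether the 2 samples of a group came from separate cultures, so p-values measure only the spread between these samples.

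The count table names its columns by treatment and by a letter set, A or B, each with a library ending in R and one without. This gives 4 libraries per treatment, 2 in each set. Values of a pair are given with the library without R first, and the libraries of set B are called B and BR. Neither the names nor the labels say which letter is which cell line, and no column was placed in a line by its counts. HTR1E itself was counted at 175, 181, 221 and 226 CPM (counts relative to the library total, scaled by TMM, the trimmed mean of M-values) in the 4 libraries of set A. In set B it was at 0 counts in both no-ligand libraries, which allows up to 1.73 CPM in B and 0.330 CPM in BR, and at 0.244 and 0.503 CPM, from 2 and 3 counts, in the serotonin libraries. The letter sets are therefore compared below as 2 named sets of libraries, and a treatment difference averaged over them mixes both lines.

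Library totals ran from 2604885 counts in no-ligand B to 9072278 in the R library of no-ligand set A. Mitochondrial transcripts took 54.4% of the counts in no-ligand B and 36.3% in serotonin BR, against 17.9% to 24.6% in the other 6 libraries. Replicate libraries correlated least in set B without ligand (Pearson r of log2 CPM across genes 0.894, against 0.959 to 0.985 in the other 3 pairs). Both libraries with high mitochondrial shares belong to set B, one in each treatment, and their part in the set B results was not tested beyond the values without them given below. All 8 HEK293 markers had counts in every library, summing to 1276 to 1903 CPM in set A and 803 to 1816 CPM in set B. Most of this sum was CKB, at a mean of 1066 CPM over the 8 libraries, and VIM, at 373 CPM. NEFM and TUBB3 each went down to 1 count in their lowest library. Of 15 markers of other cell types, 3 had counts in every library and 2, PTPRC of leukocytes and HBB of red cells, were at 0 in all. The 15 summed to 28.5 to 35.4 CPM in set A and 15.0 to 49.9 CPM in set B. Most of this was COL1A1, a fibroblast marker, at 26.1 to 31.6 CPM in set A and 12.1 to 43.9 CPM in set B.

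As background, receptors that raise cAMP free the catalytic subunits of protein kinase A, which phosphorylate CREB1 and its relatives CREM and ATF1. These factors bind the cAMP response element (CRE) in promoters and recruit the coactivators CREBBP and EP300. The CRTC coactivators are held in the cytoplasm by salt-inducible kinases such as SIK1 and enter the nucleus when cAMP or calcium rises. SIK1 is itself a CREB target, so that the kinase limits the response that induced it. Receptors coupled to inhibitory G proteins lower cAMP, while kinases downstream of ERK can also phosphorylate CREB1.

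Many cAMP-induced genes are known to be induced through the CRE, and the start-site windows of the members were searched for it. RefSeq windows (GRCh38.p14) of 300 bases, 250 before and 50 from the start, were at hand for 8 of the 10 members, in 19 windows. CRTC2 and GEM had none. The full element TGACGTCA, which reads the same on both strands and holds the shorter core TGACG on each, was found for 2 of the 8, VGF and CREM. By window it was in 3 of 19, 2 of them the same CREM site, against 1.85% of all 35116 windows. The core alone, on either strand, was found for 2 more, SIK1 and NFIL3. By window the core was in 6 of 19, close to the 24.6% of all windows that hold it. The windows of CREB1, ATF1, PER1 and CITED2 held neither, and sequence outside the windows was not searched. The only PER1 window has its start at base 8152404 of chromosome 17, inside the counted gene, which on the minus strand begins at base 8156506. The windows of 3 members are shown for the member that differed between the letter sets (VGF), the one with an internal start under a CRE (CREM) and the one with the largest serotonin difference (SIK1). Capitals mark the full element in VGF and CREM and the core sites in SIK1.
VGF: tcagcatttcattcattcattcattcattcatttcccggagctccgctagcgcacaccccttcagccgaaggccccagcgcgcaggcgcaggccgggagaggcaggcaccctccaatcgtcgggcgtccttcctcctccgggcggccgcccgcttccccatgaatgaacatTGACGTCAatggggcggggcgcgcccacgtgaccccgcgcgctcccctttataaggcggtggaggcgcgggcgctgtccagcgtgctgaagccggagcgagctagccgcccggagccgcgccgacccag
CREM: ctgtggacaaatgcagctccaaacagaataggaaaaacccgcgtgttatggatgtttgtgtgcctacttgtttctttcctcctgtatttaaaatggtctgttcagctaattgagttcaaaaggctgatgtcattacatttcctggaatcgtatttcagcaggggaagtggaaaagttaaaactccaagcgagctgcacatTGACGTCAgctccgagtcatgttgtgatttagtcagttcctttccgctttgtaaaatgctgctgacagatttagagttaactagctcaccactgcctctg
SIK1: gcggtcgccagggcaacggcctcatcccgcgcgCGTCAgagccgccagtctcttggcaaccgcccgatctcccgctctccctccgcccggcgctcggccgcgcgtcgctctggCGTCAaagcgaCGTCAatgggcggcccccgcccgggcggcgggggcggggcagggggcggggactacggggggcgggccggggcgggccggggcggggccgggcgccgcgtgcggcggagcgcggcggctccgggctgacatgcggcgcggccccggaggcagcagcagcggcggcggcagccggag

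The VGF window lies at chr7:101165520-101165819 on the minus strand, and its element begins 79 bases before the start. The CREM window lies at chr10:35195652-35195951 on the plus strand, with the element beginning 50 bases before the start. It is 1 of 7 CREM windows and serves a start inside the gene, which spans bases 35126791 to 35212958 of chromosome 10. A second, overlapping window held the same element. The SIK1 window lies at chr21:43427082-43427381 on the minus strand, and its 3 core sites begin 217, 137 and 126 bases before the start. These are matches of letters only.

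Per kilobase of annotated exon, so that genes can be set side by side, the members ran from CRTC2, with a mean level of 28.3 CPM per kb over the 8 libraries (SD 12.4), down to SIK1 at 0.450 (SD 0.418). CITED2 came second at 9.42 (SD 2.46), and CRTC2 ranged above it in every library (19.0 to 56.9 against 3.83 to 11.9). ATF1 at 4.96 (SD 1.61) and CREM at 4.30 (SD 0.831) were followed by CREB1 at 2.66 (SD 0.532), VGF at 2.66 (SD 2.21), PER1 at 2.19 (SD 0.641) and NFIL3 at 2.11 (SD 0.384). From CITED2 downwards each neighbour overlapped the next in range, except that NFIL3, at 1.54 or above, stood clear of GEM, whose highest library was at 0.831 and whose mean was 0.472 (SD 0.227). GEM and SIK1 overlapped at the bottom. SIK1 is ranked here by its own row alone. The row of its near-identical copy SIK1B, described below, stood at 0.962 CPM per kb (SD 0.931). Reads may be divided between the rows, so the place of SIK1 in this order is uncertain. In bulk RNA, a lower level per cell and fewer cells expressing a gene cannot be told apart. Values rest on 2 to 20 counts for GEM and 0 to 52 counts for SIK1 per library.

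**Figure D1:**
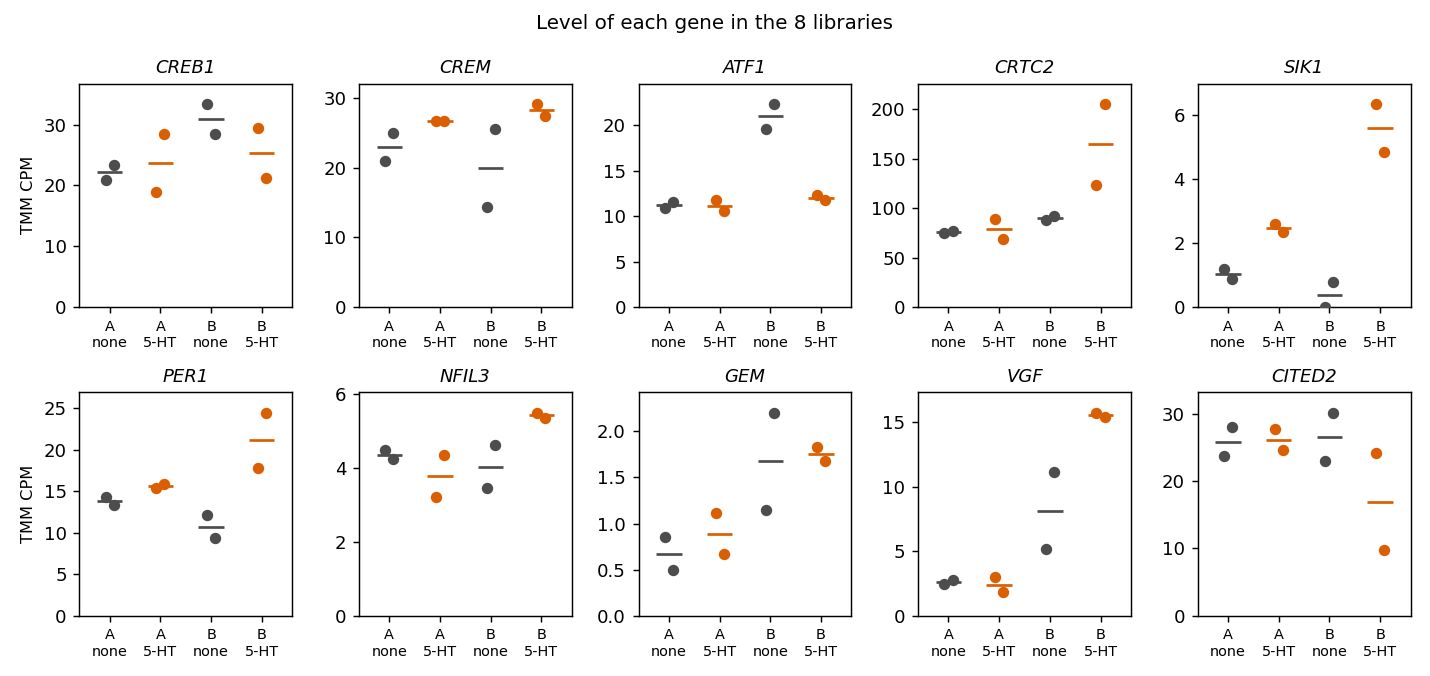
TMM-scaled CPM (vertical axis, from 0) of the 10 genes in each library, grouped by letter set (A, B) and treatment (none, no ligand in grey; 5-HT, serotonin in orange). Points are libraries and bars are means of 2. SIK1, PER1 and CREM are higher in all 4 serotonin libraries than in any no-ligand library (CREM not with library size alone), and VGF is higher in all 4 set B libraries than in any of set A.

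Serotonin against no ligand, averaged over the letter sets, gave no call among the 10 members at an adjusted p under 0.05 (edgeR's quasi-likelihood test, Benjamini-Hochberg over 17144 genes). Only 1 gene in the table was called, 0.00583% of those tested, so a count of 0 among 10 members was no departure from the table. Before adjustment, 2 of 10 members, SIK1 and PER1, were under 0.05, beside 1888 of all 17144 genes. Of the 10 members, 7 had a positive difference, with a median log2 difference of 0.25 against 0.00054 over all genes tested. Of the 10, 3 (SIK1, PER1 and, under TMM but not with library size alone, CREM) were higher in every serotonin library than in any no-ligand library, which 1.02% of tested genes were, and 2.18% of tested genes showed no overlap in one direction or the other. The members were chosen with earlier results of these data known, so the comparisons with all genes are descriptions only.

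SIK1 (ENSG00000142178.8, chr21:43414483-43427189 on hg38, minus strand) had the largest difference of the 10. It was at 1.17 and 0.886 CPM in no-ligand set A and at 2.60 and 2.34 CPM in serotonin set A. In set B it was at 0 counts in no-ligand B, which allows up to 1.73 CPM, at 0.770 CPM in no-ligand BR, and at 6.35 and 4.86 CPM in serotonin B and BR. No serotonin library overlapped a no-ligand library. The log2 difference was 2.22 ± 0.45 (SE), with an edgeR p of 0.000409 that became 0.429 after adjustment over all genes. It was called when no-ligand BR was left out (4.78, adjusted p = 0.0139), where set B without ligand rests on the library with 0 counts and the value is a fitted one, and with no filter on low counts (adjusted p = 0.00782).

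In the annotation used for counting, SIK1 has a near-identical copy, SIK1B, on the same chromosome. Of the 4706 stretches of 100 bases in its main transcript, 86.8% also occur in SIK1B, so the authors' counting could divide reads between them. SIK1B was at 1.39, 2.07, 2.97 and 1.67 CPM in set A without ligand and with serotonin, in that order. It stood at 1.73 and 3.63 CPM in no-ligand B and BR, against 11.5 and 12.1 CPM in serotonin B and BR. With both rows summed, an alternative chosen after seeing the data, the serotonin difference was 1.54 on the log2 scale (edgeR adjusted p = 0.43). SIK1 values are uncertain for this reason, and the sum cannot recover reads that the counting may have left out of both rows. Whether both rows stand for separate genes was not tested.

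PER1 (ENSG00000179094.15, chr17:8140472-8156506, minus strand), a repressor of the circadian clock known to be induced through CREB, was at 14.3 and 13.3 CPM in no-ligand set A and at 15.4 and 15.9 CPM in serotonin set A. In set B it went from 12.1 and 9.36 CPM without ligand to 17.8 and 24.5 CPM with serotonin. The groups did not overlap, and the gap was wider in set B. The log2 difference was 0.60 ± 0.21, with an edgeR p of 0.0143 and an adjusted p of 0.429.

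CREM encodes activators and, from its internal promoter, the repressor ICER; counts per gene do not separate them. It was at 20.9, 25.0, 14.4 and 25.5 CPM in no-ligand sets A and B and at 26.8, 26.7, 29.2 and 27.5 CPM in the serotonin libraries in the same order. Every serotonin library stood above every no-ligand library, though no-ligand BR lay close below them, and with library size alone the groups overlapped. The log2 difference was 0.33 ± 0.21 (edgeR adjusted p = 0.53).

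The other 2 factors had negative differences. CREB1, the family's main activator, was at 20.8, 23.4, 33.4 and 28.4 CPM without ligand and at 19.0, 28.4, 29.4 and 21.3 CPM with serotonin, and the groups overlapped throughout. Its log2 difference was -0.09, with a 95% interval from -0.54 to 0.37. ATF1, a close relative of CREB1, was at 10.9, 11.5, 19.6 and 22.3 CPM without ligand and at 11.8, 10.5, 12.3 and 11.7 CPM with serotonin. Its 2 high libraries were no-ligand B and BR, and the log2 difference was -0.41 ± 0.19 (edgeR adjusted p = 0.464).

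CRTC2, the coactivator that SIK1 phosphorylates, was at 74.7, 77.2, 88.1 and 91.8 CPM without ligand and at 89.1, 68.7, 124 and 205 CPM with serotonin. Serotonin B and BR were the 2 highest libraries, and serotonin BR, the highest, is one with a raised mitochondrial share. The log2 difference was 0.46 ± 0.22 (edgeR adjusted p = 0.464).

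None of the remaining targets was called. NFIL3, a bZIP repressor, ranged from 3.22 to 5.50 CPM and differed by 0.07 ± 0.29. GEM, a small GTP-binding protein that inhibits calcium channels, differed by 0.17 ± 0.49 on few counts. VGF, the precursor of secreted neuropeptides, differed by 0.36 ± 0.30. CITED2, which binds CREBBP and EP300, differed by -0.32 ± 0.26, with serotonin BR lowest at 9.72 CPM and the other 7 libraries at 23.0 to 30.2 CPM. The edgeR adjusted p of these 4 ran from 0.617 to 0.927.

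**Figure D2:**
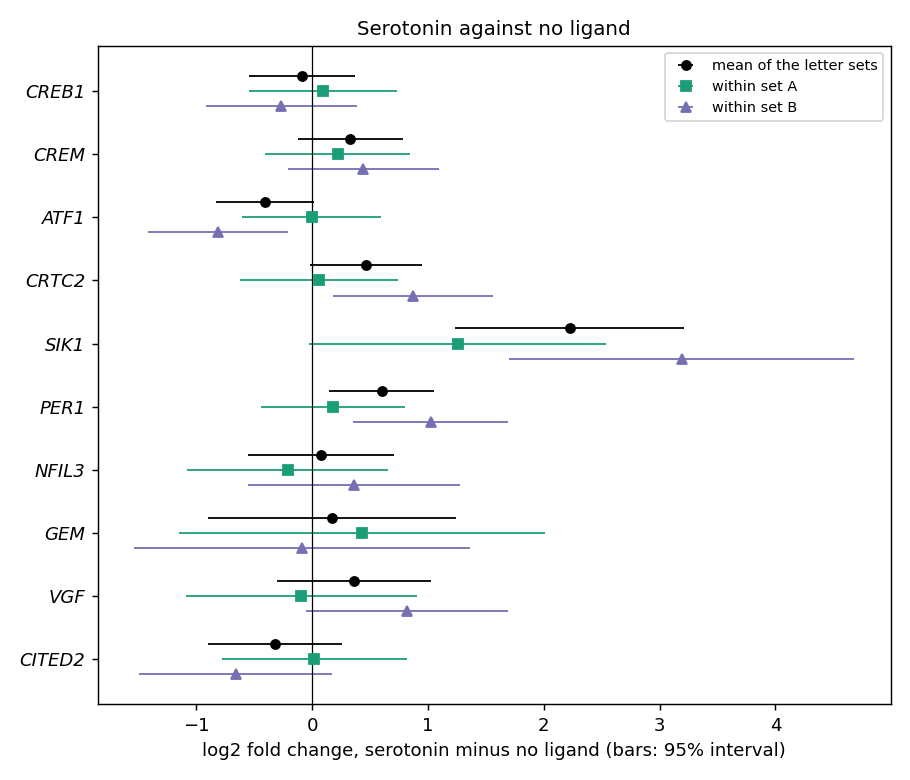
Log2 fold change of serotonin against no ligand (horizontal axis) for the 10 genes, as the mean of the letter sets (circles), within set A (squares) and within set B (triangles), with 95% intervals from the edgeR fit. The SIK1 mean lies at 2.22 with its interval from 1.24 to 3.21, and the set A intervals of all 10 genes include 0.

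Within set A, where 0 of 17144 genes were called (0%; 67 were under 0.05 unadjusted, and DESeq2 called 0), no member was called. SIK1 differed by 1.26 ± 0.58 (edgeR adjusted p = 1). The other 9 lay between -0.21 for NFIL3 and 0.43 for GEM, with CREM at 0.22, PER1 at 0.18, CREB1 at 0.09, CRTC2 at 0.05, CITED2 at 0.02, ATF1 at -0.01 and VGF at -0.09. The median of the 10 was 0.07 against -0.02 over all genes tested. The edgeR adjusted p was 1 for each.

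Within set B, 2 genes of the table were called (0.0117%), and again 0 of the 10 members. Unadjusted p-values under 0.05 were found for 4 of 10 members, 3 of them positive, beside 4521 of 17144 genes. SIK1 differed by 3.19 ± 0.68 (edgeR adjusted p = 0.0674), PER1 by 1.02 ± 0.30 (0.0904), CRTC2 by 0.87 ± 0.31 (0.123) and ATF1 by -0.81 ± 0.28 (0.11). VGF differed by 0.82, CREM by 0.44, NFIL3 by 0.36, GEM by -0.09, CREB1 by -0.27 and CITED2 by -0.66, with edgeR adjusted p of 0.215 to 0.947. Of these, CREM (1.01, adjusted p = 0.046) and VGF (1.62, adjusted p = 0.0371) were called when no-ligand BR was left out, and CITED2 (-1.46, adjusted p = 0.0483) when serotonin B was. The median of the 10 was 0.40 against 0.01 over all genes. SIK1 passed the threshold in set B under DESeq2 (3.29, adjusted p = 0.00885), with no filter on low counts (3.17, adjusted p = 0.00193), without the 2 libraries with high mitochondrial shares (3.01, adjusted p = 0.0478), and without no-ligand BR (8.32, adjusted p = 0.00811), where no-ligand set B is at 0 counts and the value is a fitted one.

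Whether the response differed between the sets was tested as an interaction, B minus A, and no gene of the table passed (0%; 2542 genes were under 0.05 unadjusted, and DESeq2 called 70). The interaction was 1.94 ± 0.91 for SIK1 (edgeR adjusted p = 0.343), 0.84 ± 0.41 for PER1, 0.81 ± 0.44 for CRTC2 and -0.81 ± 0.39 for ATF1. VGF stood at 0.91, NFIL3 at 0.57, CREM at 0.22, CREB1 at -0.36, GEM at -0.52 and CITED2 at -0.68. All 10 intervals include 0, that of SIK1 running from -0.06 to 3.94 (1.57 to 7.07 as the estimate on leaving out 1 library, the highest without no-ligand BR), so a difference in response between the sets was not shown for any member, and the intervals leave room for sizeable ones.

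The letter sets themselves differed more widely. Averaged over the treatments, 9.28% of the genes tested were called between set B and set A, 4.07% higher and 5.21% lower in B. Of the 10 members, 1 was called, VGF (ENSG00000128564.6, chr7:101162509-101165593, minus strand), which was higher in B, and 4 of 10 were under 0.05 unadjusted, beside 4341 of 17144 genes. VGF was at 2.46, 2.76, 2.97 and 1.84 CPM in set A without ligand and with serotonin, in that order, and at 5.18, 11.1, 15.8 and 15.4 CPM in the matching libraries of set B. All 4 libraries of B stood above all 4 of A, with the shallow no-ligand B the lowest of them. The log2 difference was 2.21 ± 0.30 (edgeR adjusted p = 0.00136), and it stayed past the threshold under all alternatives run. GEM was the other member whose sets did not overlap (2 of 10, beside 17.6% of tested genes, 7.62% higher in B), at 0.854, 0.492, 1.11 and 0.668 CPM in A and 1.15, 2.20, 1.83 and 1.68 CPM in B. The lowest B value rests on 2 counts, and with library size alone it was 0.768 CPM against up to 1.28 CPM in A, so that the sets overlapped. The log2 difference was 1.20 ± 0.49 (edgeR adjusted p = 0.154).

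CRTC2 and ATF1 had positive differences that were not called, 0.65 ± 0.22 (edgeR adjusted p = 0.092) and 0.51 ± 0.19 (0.126). CRTC2 was called under DESeq2 (adjusted p = 0.0431) and on leaving out no-ligand B (0.0261) or serotonin B (0.041), or both libraries with high mitochondrial shares (0.043); ATF1 was called on leaving out both (0.0414). CREB1 differed by 0.29, NFIL3 by 0.24, SIK1 by 0.21, PER1 by 0.01, CREM by -0.03 and CITED2 by -0.27, none past the threshold. Scaling by library size alone moves the median of all genes by -0.31 in this comparison, and it turns the sign of CREB1, SIK1, PER1 and NFIL3, none of them called. The copy SIK1B was higher in B by 1.56 ± 0.34 (edgeR adjusted p = 0.0176), and SIK1 with SIK1B summed by 1.11 (edgeR adjusted p = 0.0384).

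**Figure D3:**
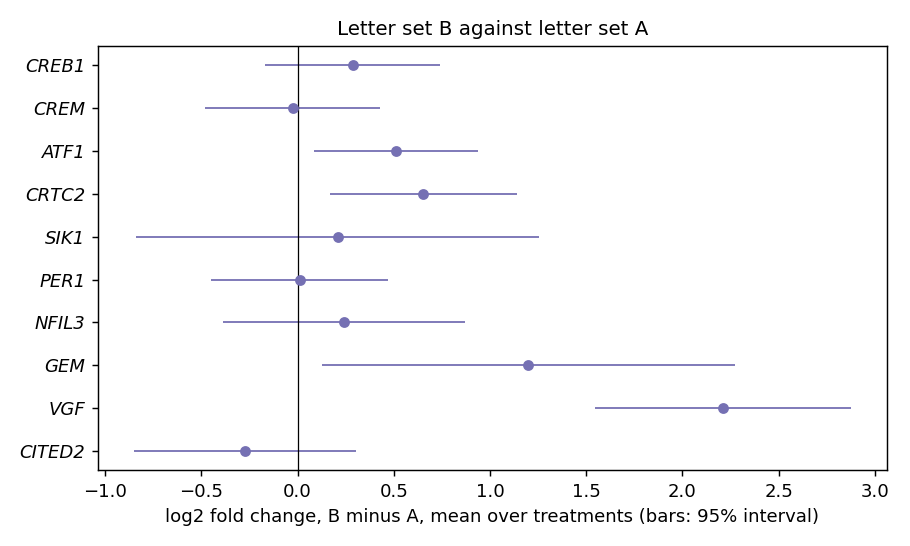
Log2 fold change of letter set B against letter set A, averaged over the treatments (horizontal axis), for the 10 genes, with 95% intervals from the edgeR fit. VGF lies at 2.21 and is the one member past the adjusted threshold.

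Of 30 further genes known to be induced by cAMP, 24 passed the filter. This list, too, was chosen with earlier results of these data known. For serotonin averaged over the sets, 1 of the 24 was called higher, NR4A1, an immediate early nuclear receptor, and 0 lower. NR4A1 was the only gene called in the table, 0.00583% of those tested. NR4A1 was at 13.6, 11.5, 16.1 and 15.5 CPM in no-ligand sets A and B and at 24.3, 18.0, 87.7 and 104 CPM with serotonin. All 4 serotonin libraries stood above the no-ligand ones, with those of set B far above those of set A. Its log2 difference was 1.68 ± 0.20 (edgeR adjusted p = 0.0472), a call lost on leaving out any 1 of the A libraries, serotonin B or serotonin BR (adjusted p from 0.0661 to 0.868), with library size alone (0.307), and in the additive (0.738) and treatment-only (0.851) fits. NR4A2, a close relative, differed by 1.60 ± 0.22 (edgeR adjusted p = 0.104). It was called under DESeq2 (6.74e-05), with no filter (4.69e-06), without no-ligand B (0.000953) or no-ligand BR (0.00774), and without both libraries with high mitochondrial shares (2.45e-06). Across the 24 genes the median was 0.25 on the log2 scale, against 0.00054 over all genes tested.

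Within set B, NR4A1 rose by 2.61 ± 0.29 and its relative NR4A2 by 2.71 ± 0.31 (edgeR adjusted p = 0.0219 for both), the 2 genes called in the whole table. NR4A2 was at 13.2 and 8.48 CPM in no-ligand B and BR and at 65.7 and 67.8 CPM in serotonin B and BR, while set A held it at 5.22 to 8.80 CPM. Both calls are lost with library size alone (adjusted p = 0.0837), without serotonin BR (0.293) and without any 1 library of set A (0.0532 to 0.0560). Within set A none of the 24 was called, and the 2 largest differences were 1.15 for PDE4B, a phosphodiesterase with 3 to 8 counts there, and 1.10 for EGR1, an immediate early zinc finger factor. The interaction was 1.85 for NR4A1 and 2.21 for NR4A2 (edgeR adjusted p = 0.306 for both), past the threshold for both under DESeq2 (0.0472 and 0.0364).

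Between the letter sets, 5 of the 24 were called, all higher in B, and 0 lower, beside 4.07% of all tested genes higher and 5.21% lower. The median was 0.61, against -0.0021 over all genes. ARC, a synaptic immediate early gene, was at 3.47 to 5.42 CPM in A and 21.9 to 44.2 CPM in B, a log2 difference of 2.89 ± 0.22 (edgeR adjusted p = 3.48e-05). NR4A2 differed by 1.83 ± 0.22, the AP-1 subunit FOSB by 1.83 ± 0.29, its relative FOS by 1.54 ± 0.35, and NR4A1, the fifth, by 1.25 ± 0.19, with edgeR adjusted p of 0.000607 to 0.0211. These values average both treatments. Without ligand, means in A and B were 12.5 and 15.8 CPM for NR4A1 and 6.19 and 10.9 CPM for NR4A2. With serotonin they were 21.2 and 96.0 CPM, and 8.74 and 66.8 CPM. Means without ligand were 4.90 and 25.4 CPM for ARC, 2.52 and 8.05 CPM for FOSB, and 2.43 and 5.44 CPM for FOS. The FOS call is lost with library size alone (adjusted p = 0.0782) and on leaving out either no-ligand library of set A, the R library of serotonin set A, or serotonin B (0.0669 to 0.122).

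**Figure D4:**
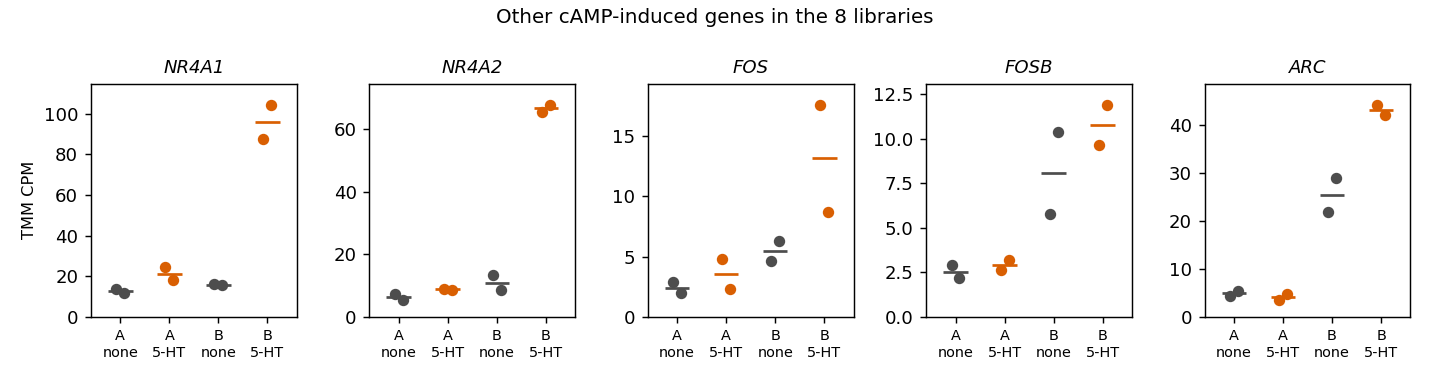
TMM-scaled CPM (vertical axis, from 0) of 5 other cAMP-induced genes in each library, by letter set and treatment as in the plot of the 10 members; points are libraries and bars are means of 2. NR4A1 and NR4A2 are highest in the 2 serotonin libraries of set B, and ARC is higher in all 4 set B libraries than in any of set A.

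Of 22 other genes of the CREB and CRTC machinery (cofactors, kinases, phosphatases and related bZIP factors), all 22 passed the filter and 0 were called in any of the 5 comparisons. In the 4 comparisons that involve serotonin, between 0% and 0.0117% of all genes were called, so a count of 0 there matches the table, while between the sets 9.28% of all genes were. Their median was -0.12 for serotonin over both sets, 0.04 within A, -0.38 within B, -0.45 for the interaction and 0.16 between the sets. The largest values over both sets were -0.59 for the membrane-bound factor CREB3L2 and -0.53 for PPP3CA, a calcineurin subunit, both called without no-ligand BR (-0.82 and -0.71, adjusted p = 0.0273 and 0.0309). Within A they were -0.35 for CREBL2 and -0.30 for CREB3. Within B they were -1.28 for the acetyltransferase EP300 and -1.21 for ATF7, whose interactions were -1.57 and -1.44. Within B both were called under DESeq2 (adjusted p = 0.0336 and 0.03), with no filter (0.0391 and 0.0223) and without no-ligand BR (0.000948 and 0.00329), and ATF7 also without serotonin B (0.0495). Both interactions were called without no-ligand BR (0.00419 and 0.0101), and EP300 within B was -0.34 without no-ligand B. EP300 was at 351 CPM in no-ligand B, the library with the highest mitochondrial share, and at 96.2 to 162 CPM in the other 7. Between the sets the largest were 0.70 for ATF4 and 0.67 for ATF3, both called without no-ligand B (adjusted p = 0.0105 and 0.00221).

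The tested genes whose log2 CPM followed SIK1 most closely over the 8 libraries were SPATA2 (Pearson r = 0.979), AC002550.2 (0.976), LINC00869 (0.973), RSPH4A (0.972) and AL157392.4 (0.971). These are descriptions over 8 libraries that share depth and composition, for a gene with 0 to 52 counts.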

How the data were processed

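PolyA RNA of the 8 samples was sequenced with a stranded kit, per the labels' protocols. The deposited table holds raw counts of read pairs per gene and each gene's length (a non-count value in bases), made by the authors with featureCounts 2.0.1 in reverse-stranded mode on GENCODE 28, per the file headers. The submitters' processing notes name hg38, STAR 2.7.8a, cutadapt 3.4 and SAMtools 1.12; how reads from near-identical genes were assigned is not given in the sources used here. Each ID was matched to a symbol, and 120 of 58440 rows kept the ID alone.

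Genes passing filterByExpr (17144) were fitted in edgeR 4.0.16 (R 4.3.3; TMM, robust quasi-likelihood) with a mean for each letter set and treatment. Contrasts were serotonin against no ligand (averaged and within each set), their difference, and set B against set A. A gene was called at a Benjamini-Hochberg adjusted p under 0.05. The fit was run on simulated counts only to check that it returned known fold changes, which bears on none of the calls given here. Alternatives were upper-quartile and library-size scaling, DESeq2 1.42.0, no filter, leaving out each library, replicate blocks, and additive and treatment-only fits; leaving out the 2 libraries with high mitochondrial shares and summing SIK1 with SIK1B were chosen after seeing the data. The members and lists were chosen with earlier results of these data known. Named were all 10 members and, from each list and comparison, up to 4 called genes with the largest differences, or the 2 largest values where none was called. Depth was 2604885 to 9072278 counts per library; limits for counts of 0 (3 counts) cover counting error only, while the 95% intervals come from the edgeR fit and include the spread between libraries.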

Additional observations from a re-analysis of the deposited data

How the results depend on the processing

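Counts of called genes moved with the processing more than the members did. For serotonin averaged over the sets, 1 gene was called, against 0 with library size alone, in the additive fit and with treatment alone, 11 with DESeq2, 178 with no filter, 4 without no-ligand B and serotonin BR, and 0 to 1609 on leaving out 1 library (most without no-ligand BR). Within set B, 2 became 0 with library size alone, 1599 with DESeq2, 1647 with no filter, 81 without those 2 libraries, and 0 to 4839 on leaving out 1 (4839 without no-ligand BR, 978 without serotonin B, 97 without no-ligand B). The interaction count of 0 became 70 with DESeq2, 443 with no filter, 6 without the 2 libraries, and 0 to 3473 on leaving out 1 (3473 without no-ligand BR). Between the sets, 1591 became 1053 in the additive fit, 3509 without the 2 libraries, and 509 to 3541 on leaving out 1. With library size alone it was 1217, 232 higher and 985 lower in B, against 697 and 894. Within set A the count was 0 under all alternatives run. The cause was not tested.

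With the rest of the column name as a replicate block, counts were 44 averaged over the sets, 2327 within B, 373 for the interaction and 0 within A, and calls were gained within B by SIK1 (3.18, adjusted p = 0.0159) and ATF7 (0.0106), averaged over the sets by NR4A2 (0.0116), and in the interaction by NR4A1 (0.032) and NR4A2 (0.0273). With the trailing letter as a replicate block, 1083 genes were called between the sets. Deviations of same-named libraries correlated at 0.00353 in set A and 0.146 in set B, and the names were not taken to pair the samples. With 2 libraries per set and treatment, these correlations cannot exclude a pairing.

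Of 1085 single-gene values under the alternatives, 973 kept their direction and side of the threshold, 26 lost a call, 47 gained one and 39 changed sign, 0 of these in a called gene. On leaving out 1 library, the log2 difference ranged, averaged over the sets, from -0.245 to 0.0391 for CREB1, -0.0385 to 0.228 for NFIL3 and -0.0539 to 0.529 for GEM. Within A it ranged from -0.228 to 0.338 for CREB1, -0.112 to 0.0661 for ATF1, -0.167 to 0.225 for CRTC2, -0.0236 to 0.842 for GEM, -0.523 to 0.183 for VGF and -0.110 to 0.135 for CITED2. Within B it ranged from -0.323 to 0.635 for GEM, 0.150 to 1.01 for CREM, 0.486 to 1.62 for VGF, -1.46 to -0.157 for CITED2 and 2.84 to 8.32 for SIK1. The interaction ranged from -0.0891 to 0.801 for CREM, -0.911 to 0.212 for GEM and 1.57 to 7.07 for SIK1. Between the sets it ranged from -0.316 to 0.153 for CREM, -2.36 to 0.419 for SIK1 and -0.113 to 0.149 for PER1. Within A, ATF1 was 0.0177 with upper-quartile scaling and 4.11e-05 with DESeq2, and CITED2 was -0.00488 with no filter. Without no-ligand B and serotonin BR, CREB1 was 0.0617 averaged and 0.0400 within B, the CREM interaction was -0.0344, and between the sets CREM was 0.150, PER1 -0.172 and CITED2 0.0643. With library size alone, the difference between the sets was -0.0283 for CREB1, -0.0268 for SIK1, -0.321 for PER1 and -0.0412 for NFIL3, and with no filter it was -0.0263 for PER1.

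Fits that leave out 1 library of a pair assume that the lone library varies like the others. Counts of 0 to 52 for SIK1 and 2 to 20 for GEM limit both genes, and no-ligand B was the shallowest library for all members.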
